A study of Homo sapiens with 6 samples.

Results

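The metallothioneins, the zinc exporter SLC30A1 and their metal-sensing transcription factor MTF1 were followed in MDA-MB-231 cells under BRL-50481, an inhibitor of PDE7A. The genes were chosen by name, as MT1E, MT1F, MT1L, MT1X, MT2A, SLC30A1 and MTF1. Of these 7 genes, 6 were found among the 15651 genes of the deposited expression table, and MT1L was not analysed here. MDA-MB-231 is an established human triple-negative breast cancer (TNBC) cell line, and BRL-50481 blocks a phosphodiesterase that degrades cyclic AMP. RNA was sequenced from 3 cultures treated with DMSO, the solvent control, and from 3 treated with BRL-50481. The protocol text gives 50 μM for 72 h, whereas the treatment tag of the treated samples gives 5 μM and 48 h. All cells were grown in DMEM with serum, and the protocols used here mention no addition of metal. The sample labels describe RNA selected with oligo-dT beads and the series text depletion of ribosomal RNA, so the selection step is uncertain.

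Metallothioneins are small cysteine-rich proteins that bind zinc and copper in metal-thiolate clusters and buffer the free metal of the cytosol. When free zinc rises, MTF1 binds metal response elements (MREs) in the promoters of the metallothionein genes and of SLC30A1 and activates them. SLC30A1, also called ZnT1, then carries zinc out across the plasma membrane, while proteins of the ZIP family bring zinc into the cytosol. Metallothionein genes also respond to glucocorticoids and to oxidative stress.

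The metallothionein genes lie side by side on chromosome 16 of hg38, where GENCODE places 16 metallothionein loci between 56565073 and 56684196. MT2A spans 56608584 to 56609497, MT1E 56625475 to 56627112, MT1F 56657731 to 56660698 and MT1X 56682470 to 56684196, all on the plus strand. SLC30A1 (211571568 to 211579161) and MTF1 (37809574 to 37859592) lie on the minus strand of chromosome 1. The RefSeq promoter table held 4 of the 7 genes, and the 250 bases before the start site were searched on both strands for the MRE core, spelled TGCACNC or TGCGCNC. The promoters of MT2A, MT1X and SLC30A1 are shown because these genes of the same zinc response moved in different directions. They are written in the direction of transcription, in the build GRCh38.p14, with each match to the MRE core in capitals.
MT2A, chr16:56608334-56608583, plus strand: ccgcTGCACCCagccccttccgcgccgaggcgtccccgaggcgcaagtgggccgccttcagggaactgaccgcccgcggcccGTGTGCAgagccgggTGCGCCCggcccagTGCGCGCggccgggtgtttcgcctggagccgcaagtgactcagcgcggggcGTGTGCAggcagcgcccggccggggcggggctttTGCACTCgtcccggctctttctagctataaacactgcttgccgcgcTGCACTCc
MT1X, chr16:56682220-56682469, plus strand: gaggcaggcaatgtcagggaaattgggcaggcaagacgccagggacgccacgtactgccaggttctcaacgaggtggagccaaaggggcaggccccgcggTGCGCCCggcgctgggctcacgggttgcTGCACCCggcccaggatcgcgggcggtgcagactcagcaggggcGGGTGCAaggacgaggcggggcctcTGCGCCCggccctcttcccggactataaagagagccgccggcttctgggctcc
SLC30A1, chr1:211579162-211579411, minus strand: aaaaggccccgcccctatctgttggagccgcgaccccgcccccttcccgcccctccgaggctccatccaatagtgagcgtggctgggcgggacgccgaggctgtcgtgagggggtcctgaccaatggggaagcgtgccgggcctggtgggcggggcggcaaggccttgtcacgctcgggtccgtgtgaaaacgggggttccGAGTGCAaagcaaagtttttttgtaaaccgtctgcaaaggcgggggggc

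The MT2A window held 7 matches, the MT1X window 4, the SLC30A1 window 1 and the MTF1 window 0. Of 35116 RefSeq promoters, 24.8% held at least 1 match in the same window, 0.37% held 4 or more and 0.12% held 5 or more. The nearest match to the start lay 8 bases before it in MT2A, 53 in MT1X and 49 in SLC30A1. A TATA box (TATAAA), found in 10.7% of promoters, was present in the windows of MT2A and MT1X and not in those of SLC30A1 and MTF1. None of the 4 windows held the full cyclic AMP response element (TGACGTCA, in 1.65% of promoters). Its short form TGACG, in 21.2% of promoters, occurred in the MTF1 window alone among the 4. The core of the antioxidant response element (TGACNNNGC, in 10.9%) occurred in the windows of MT2A, MT1X and SLC30A1. A match is a run of letters and not a measured binding site.

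The libraries held 30750573 to 33446984 reads on genes. Within each group the libraries differed beyond counting error (chi-square over its degrees of freedom, 2.58 to 20.9 for pairs of libraries). DMSO replicate 1 stood apart, with an SD of its log2 deviations from the group mean of 0.141 against 0.0791 to 0.119 in the other libraries. In this library, 187 genes with canonical transcripts under 600 bases had a median log2 difference of -0.23 from the mean of the other two DMSO libraries, and 3330 genes with transcripts over 5000 bases a median of 0.16. The canonical transcripts of MT2A (401 bases), MT1X (404) and MT1F (425) belong to the short class, those of SLC30A1 (5893) and MTF1 (7937) to the long class, and that of MT1E (746) to neither. The fold change of each metallothionein gene, SLC30A1 and MTF1 and the counts for the gene lists are therefore given also without DMSO replicate 1. They are given as well after removing, library by library, the dependence on transcript length and GC content. This correction takes each library against the mean of all 6, so it also removes any length or GC trend between the groups. It is therefore not a correction of DMSO replicate 1 alone, and the 2 settings can move a fold change in opposite directions. The cell line's markers VIM, CD44, AXL and CAV1 had mean levels of 3903 to 34005 normalized counts per kb of transcript. PGR had at most 7.75 normalized counts in any library, and ESR1, PTPRC and ALB were not among the genes analysed here. The epithelial marker CDH1 went from 7.94 to 20.7 per kb (DMSO and BRL-50481 means), the endothelial marker PECAM1 from 52.5 to 73.0, ERBB2 from 368 to 420 and EPCAM from 494 to 441. Of the 8 markers tested, 7 were higher and 1 lower in treated cells by limma, beside 28.9% higher and 29.8% lower of all genes tested. The list mixes markers expected in this line with markers expected to be low or absent. Log2 fold changes were 1.39 for CDH1, 0.58 for VIM and 0.48 for PECAM1. The part of these shifts in the results was not tested.

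All 6 genes were called as changed after BRL-50481 treatment in the main analysis, 3 upward and 3 downward. Of 18 other settings, the call was lost in 8 for MT1E, 2 for MT1F and MTF1, 1 for MT2A and SLC30A1, and 0 for MT1X. In bulk RNA, fewer cells expressing a gene and less RNA per cell cannot be told apart. MT2A, MT1E and MT1F were higher, and MT1X, SLC30A1 and MTF1 were lower, at an adjusted p under 0.05 in limma over the 15246 genes tested. The whole transcriptome moved widely in this comparison, since 58.7% of all genes tested were called, 28.9% as higher and 29.8% as lower. The count of 6 of 6 is to be read against these shares. For each of the 6 genes, all treated values lay on 1 side of all DMSO values, which held for 64.2% of all genes tested. An exact permutation test of the 6 values of a gene gave p = 0.1 (two-sided, n = 3 per group) in each case, the smallest p that this design allows. The log2 fold changes ranged from -0.64 to 0.57, with a median of -0.040, beside a median of 0.015 over all genes tested. None of the 6 passed an absolute log2 fold change of 1, which 8.04% of all genes passed together with the adjusted p.

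**Figure D1:**
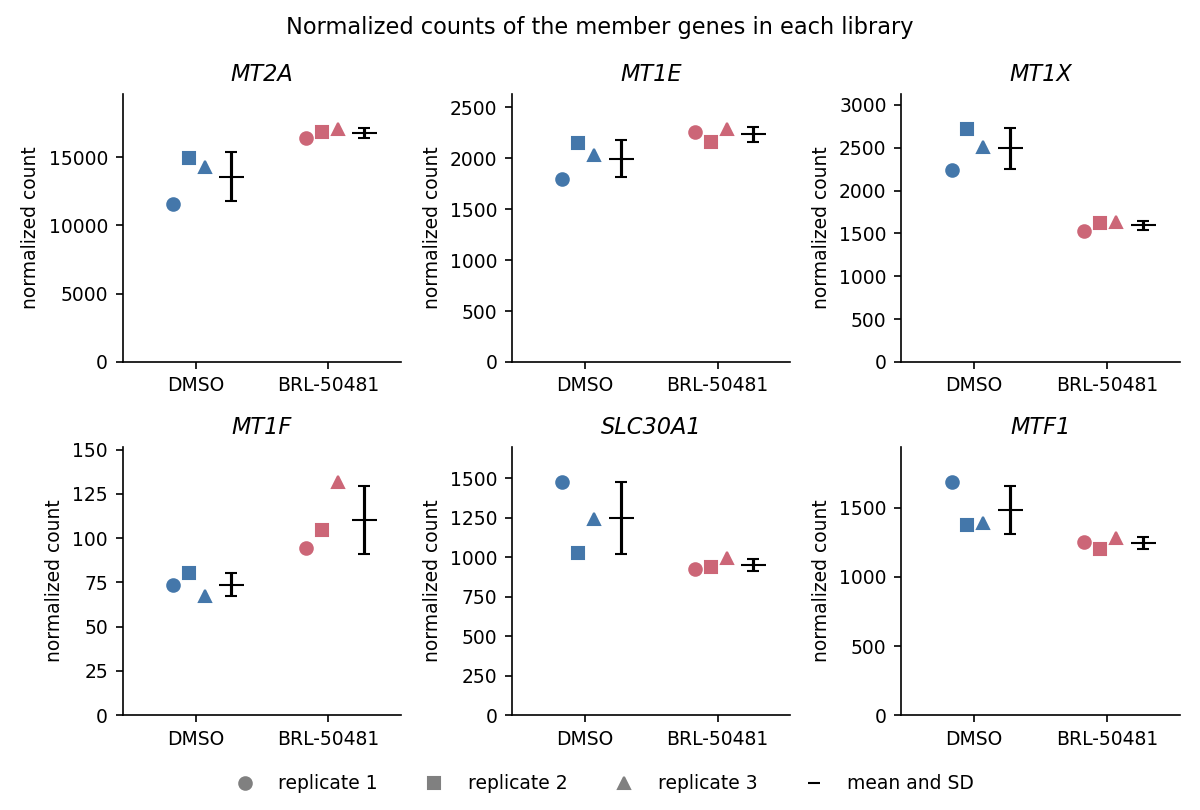
Normalized counts of the 6 genes in each library (y axes, each starting at 0), with DMSO in blue and BRL-50481 in red, replicates by symbol, and the mean with its SD (n = 3) beside them. For MT2A, MT1E and MT1F all treated libraries sit above all DMSO libraries, and for MT1X, SLC30A1 and MTF1 below them. The circles of DMSO replicate 1 lie lowest in its group for MT2A, MT1E and MT1X and highest for SLC30A1 and MTF1.

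MT2A, the major metallothionein of these cells, had 11535, 14914 and 14282 normalized counts (gene reads scaled by the size factor of their library) in DMSO replicates 1 to 3 and 16404, 16853 and 17096 in the BRL-50481 replicates. The treated libraries were tightly grouped, and DMSO replicate 1 was the lowest of the 6. The mean rose from 13577 ± 1796 to 16785 ± 351 (SD, n = 3 each). On the log2 scale the change was 0.31 with a standard error of 0.0762 (limma, adjusted p = 0.00311). Without DMSO replicate 1 the log2 fold change was 0.20 (standard error 0.0356, adjusted p = 3.63e-06), and after the correction for length and GC content it was 0.43 (standard error 0.0368, adjusted p = 1.01e-07). With limma's prior variance held constant over expression levels, the call was lost (adjusted p = 0.0524).

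MT1X fell, in contrast to MT2A, MT1E and MT1F of the same cluster. Its normalized counts were 2245, 2724 and 2509 in the DMSO libraries and 1533, 1619 and 1631 in the BRL-50481 libraries. The lowest DMSO value lay far above the highest treated value. The mean went from 2493 ± 240 to 1594 ± 53.4 (SD, n = 3 each). This was a log2 change of -0.64 with a standard error of 0.0696, the largest of the 6 in size (limma, adjusted p = 4.76e-06). It was -0.71 without DMSO replicate 1 and -0.53 after the correction for length and GC content, and stayed called in the 18 other settings tried at the same threshold. Of the 329 windows of 76 bases, the read length, in the canonical MT1X transcript, 26 (7.90%) also occur elsewhere, in MT1G or the pseudogene MT1XP1, and reads from them could not be assigned to MT1X alone. GENCODE also lists a long non-coding RNA whose exons overlap MT1X on the same strand.

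MT1E rose by an amount close to the spread between replicates. Its normalized counts were 1795, 2154 and 2037 in DMSO and 2261, 2156 and 2292 in BRL-50481. DMSO replicate 2 and BRL-50481 replicate 2 were nearly equal, so that the groups were separated by a narrow gap. The mean went from 1995 ± 183 to 2236 ± 71.7 (SD, n = 3 each). On the log2 scale the change was 0.17 with a standard error of 0.0679 (limma, adjusted p = 0.0479). Without DMSO replicate 1 the log2 fold change was 0.094 with an adjusted p of 0.0968, and count-based tests on the reads gave an adjusted p of 0.0529 in edgeR and 0.0550 in DESeq2. The call was also lost on leaving out DMSO replicate 3 or any of the BRL-50481 libraries, with adjusted p-values up to 0.153. After the correction for length and GC content the log2 fold change was 0.24 (adjusted p = 7.33e-05). This value depends on the canonical transcript chosen for MT1E, of 746 bases. In MT1E, 11.6% of the 76-base windows occur elsewhere, in MT1G.

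MT1F was a minor transcript. It had 73.4, 80.3 and 67.4 normalized counts in the DMSO libraries and 94.6, 105 and 132 in the BRL-50481 libraries, from 66 to 136 reads per library. The treated libraries were spread more widely than the controls, with BRL-50481 replicate 3 the highest. The mean rose from 73.7 ± 6.46 to 110 ± 19.2 (SD, n = 3 each). This was a log2 change of 0.57 with a standard error of 0.163, the largest rise of the 6 genes and the least precise (limma, adjusted p = 0.00912). Without BRL-50481 replicate 3 it was 0.43 and did not pass the threshold (adjusted p = 0.0583), and with quantile normalization it was 0.40 (adjusted p = 0.0531). It was 0.56 without DMSO replicate 1 and 0.68 after the correction for length and GC content. None of its 76-base windows occurs elsewhere.

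Of the other metallothionein genes and pseudogenes, only MT1A was among the genes analysed here. It had 69.5, 75.4 and 106 normalized counts in DMSO and 64.4, 80.6 and 96.0 in BRL-50481, so the groups overlapped. Its log2 fold change was -0.053, with a 95% confidence interval from -0.48 to 0.38 (adjusted p = 0.838 in limma). The interval includes the change seen in MT2A as well as none. It was -0.17 without DMSO replicate 1 and 0.060 after the correction for length and GC content, and was called in neither (adjusted p = 0.460 and 0.796).

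Levels of different genes were compared per kb of canonical transcript. That of MT1E has 746 bases in 2 exons, and those of MT2A, MT1X, MT1F and MT1A have 396 to 425 bases in 3 exons. The rank of MT1E per kb therefore depends on this choice of transcript. MT2A had 33858 ± 4479 normalized counts per kb in DMSO, followed by MT1X (6170 ± 594), MT1E (2675 ± 246), MT1A (211 ± 49.8) and MT1F (173 ± 15.2, SD, n = 3 each). The levels of MT1A and MT1F did not differ beyond their spread. In BRL-50481 the order of the upper genes per kb was the same, with MT2A at 41857 ± 875, MT1X at 3947 ± 132 and MT1E at 2998 ± 96.1. MT1F (260 ± 45.2) lay above MT1A (203 ± 39.8) by less than the sum of their SDs. In counts not divided by length, MT1X lay above MT1E in DMSO (means 2493 and 1995) and below it in BRL-50481 (1594 and 2236). The per-kb ratio of MT1X to MT1E was 2.31, 2.34 and 2.27 in the DMSO libraries and 1.25, 1.39 and 1.31 in the treated ones. These pairs of genes share their libraries, so a common scaling of a library leaves the ratio as it is. The transcript lengths used set the size of the ratio, by the same factor in every library.

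The make-up of the metallothionein transcripts shifted with treatment. MT1X amounted to 19.5%, 18.3% and 17.6% of the MT2A normalized count in the DMSO libraries and to 9.35%, 9.60% and 9.54% in the BRL-50481 libraries. The groups did not overlap, and DMSO replicate 1 had the highest ratio of its group. Per kb, the share of MT2A in the sum of the 5 genes went from 78.5% ± 0.832 to 85.0% ± 0.183, that of MT1X from 14.4% ± 0.596 to 8.01% ± 0.115, and that of MT1E from 6.23% ± 0.230 to 6.09% ± 0.224 (SD, n = 3 each). The sum itself was 37079, 47202 and 44983 normalized counts per kb in DMSO and 48120, 49375 and 50297 in BRL-50481. Each treated library lay above each DMSO library, and the means of 43088 and 49264 differed by little more than the DMSO SD of 5321. As the sum combines chosen genes, no test is given for it. The 5 genes took 0.0483% to 0.0609% of the reads on genes in DMSO and 0.0658% to 0.0684% in BRL-50481.

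**Figure D2:**
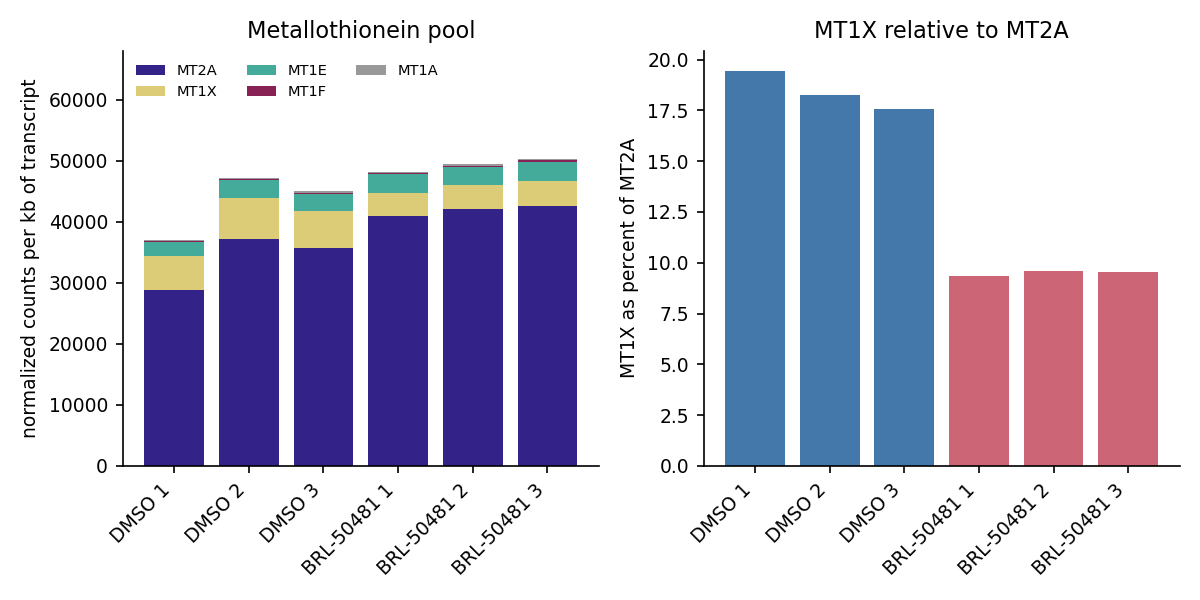
Left, normalized counts per kb of canonical transcript of the 5 metallothionein genes analysed, stacked for each library, and right, the MT1X normalized count as a percentage of the MT2A normalized count in each library (bars from 0, DMSO blue, BRL-50481 red). MT2A makes up most of each bar, and MT1X falls from 17.6% or more of MT2A in DMSO to 9.60% or less in BRL-50481.

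SLC30A1, which exports zinc from the cytosol, was lower in treated cells. It had 1477, 1026 and 1239 normalized counts in the DMSO libraries and 925, 937 and 994 in the BRL-50481 libraries. The DMSO libraries were widely spread, and the lowest of them lay just above the highest treated library. The mean went from 1247 ± 226 to 952 ± 37.1 (SD, n = 3 each). On the log2 scale the change was -0.37 with a standard error of 0.104 (limma, adjusted p = 0.00742). Without DMSO replicate 1 it was -0.24 (standard error 0.0683, adjusted p = 0.00182), and after the correction for length and GC content -0.52 (standard error 0.0719, adjusted p = 1.52e-05). With a constant prior variance the adjusted p was 0.0673.

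MTF1, the zinc-sensing transcription factor, had 1689, 1376 and 1389 normalized counts in DMSO and 1253, 1200 and 1283 in BRL-50481. DMSO replicate 1 was the highest of the 6 libraries, and the groups did not overlap. The mean went from 1485 ± 177 to 1245 ± 42.4 (SD, n = 3 each). This was a log2 change of -0.25 with a standard error of 0.0784 (limma, adjusted p = 0.0153). It was -0.15 without DMSO replicate 1 (standard error 0.0576, adjusted p = 0.0201) and -0.46 after the correction for length and GC content (standard error 0.0505, adjusted p = 1.54e-06). Without BRL-50481 replicate 2 it was -0.22 and the call was lost (adjusted p = 0.0712), as it was with a constant prior variance (adjusted p = 0.0736). Per kb, MTF1 (187 ± 22.3 in DMSO, 157 ± 5.34 in BRL-50481) and SLC30A1 (212 ± 38.4 and 162 ± 6.30, SD, n = 3 each) did not differ from each other beyond their spread in either group.

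The DMSO libraries differed from each other in most of the 6 genes. In DMSO replicate 1, the log2 level relative to the mean of the other two DMSO libraries was -0.34 for MT2A, -0.22 for MT1E and -0.22 for MT1X, whereas it was 0.39 for SLC30A1 and 0.29 for MTF1. For MT1F it was -0.0033. DMSO replicate 2 had the opposite signs in these 5 genes, with 0.22 for MT2A, 0.17 for MT1E, 0.20 for MT1X, -0.40 for SLC30A1 and -0.15 for MTF1, and 0.19 for MT1F. In both libraries the signs for MT2A, MT1X, SLC30A1 and MTF1 were those of the medians of their length classes, which in DMSO replicate 2 were 0.13 for short and -0.12 for long transcripts. In the treated libraries the corresponding differences were at most 0.095 in size for MT2A, MT1E, MT1X, SLC30A1 and MTF1. Between the groups, the genes with short canonical transcripts had a median log2 fold change of -0.26 and those with long ones of 0.11. MT2A and MT1F, which rose, and SLC30A1 and MTF1, which fell, had the opposite sign to the median of their length class, and MT1X had the same sign. Without DMSO replicate 1, however, the changes of MT2A (0.31 to 0.20), SLC30A1 (-0.37 to -0.24) and MTF1 (-0.25 to -0.15) were smaller in size. That of MT1F was nearly the same (0.57 and 0.56) and that of MT1X larger in size (-0.64 to -0.71). The part of transcript length in these changes was not tested. All 6 genes kept their direction in each of the 18 other settings tried.

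**Figure D3:**
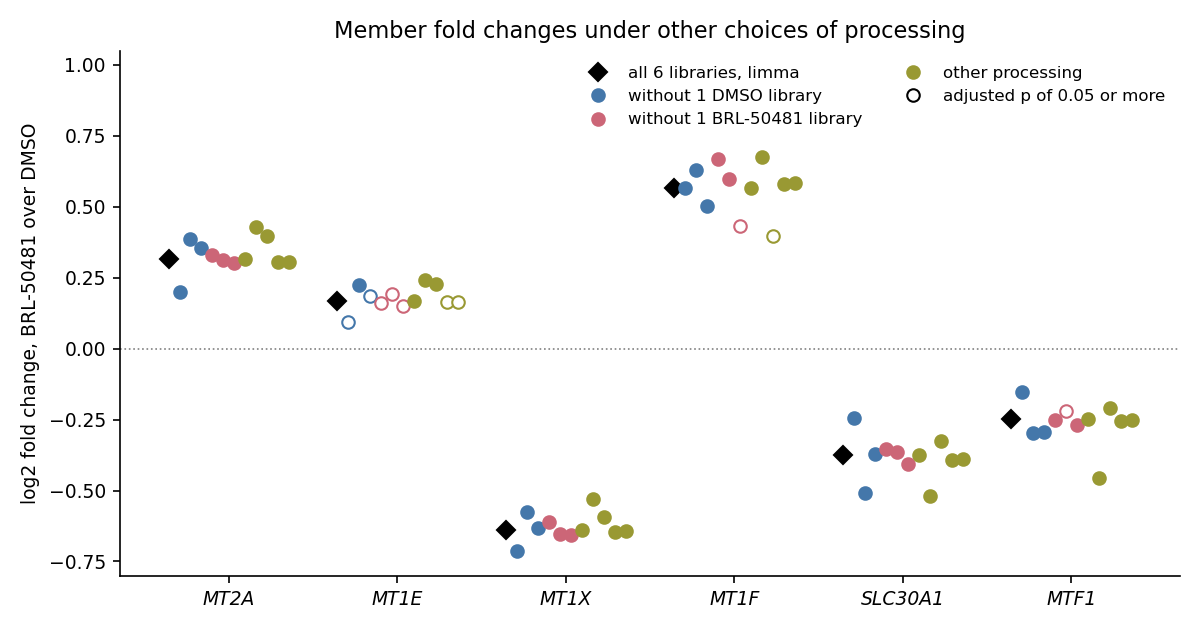
Log2 fold change of each of the 6 genes (y axis, BRL-50481 over DMSO) with all libraries in limma (black diamonds), without 1 DMSO library (blue), without 1 BRL-50481 library (red) and with other processing (olive: replicate block, length and GC correction, quantile normalization, edgeR and DESeq2). Open symbols mark an adjusted p of 0.05 or more, which are most frequent for MT1E, and each gene stays on its side of 0.

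The other zinc transporters of the ZnT family moved both ways. Of 10 genes listed, 7 were tested, of which 2 were called higher and 2 lower, and the median was 0.013 on the log2 scale. The 4 of 7 called stand beside 58.7% of all genes tested. SLC30A3, a loader of vesicles best known from neurons, went from 53.0 ± 10.9 to 22.8 ± 5.51 normalized counts (-1.19 on the log2 scale, SE 0.253, limma adjusted p = 0.00127). TMEM163, a zinc efflux protein, rose from 209 ± 13.9 to 371 ± 11.9 (0.82, standard error 0.0950, adjusted p = 7.95e-06). SLC30A9, which exports zinc from mitochondria, rose from 2191 ± 18.0 to 3176 ± 76.3 (0.54, standard error 0.0498, adjusted p = 1.24e-06). SLC30A7, which loads zinc into the Golgi, had a log2 fold change of 0.013 with a 95% confidence interval from -0.13 to 0.15. The counts were also 2 and 2 without DMSO replicate 1, and 2 higher and 4 lower after the correction for length and GC content. SLC30A1 was thus lower beside other ZnT genes that were higher, lower or not called.

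Of the ZIP importers tested, more were lower than higher. Of 14 genes listed, 12 were tested, 7 were called lower and 3 higher, and the median on the log2 scale was -0.34, against 0.015 over all genes tested, of which 29.8% were lower and 28.9% higher. SLC39A7, which releases zinc from the endoplasmic reticulum, went from 10803 ± 341 to 6668 ± 67.5 normalized counts (-0.70 on the log2 scale, SE 0.0449, limma adjusted p = 5.45e-08). SLC39A6, an importer of the plasma membrane, went from 6530 ± 313 to 4276 ± 53.6 (-0.61, standard error 0.0495, adjusted p = 3.87e-07), and SLC39A1 from 7265 ± 467 to 5829 ± 99.1 (-0.32, standard error 0.0530, adjusted p = 0.000200). The 3 called higher had log2 fold changes from 0.19 to 0.44. Without DMSO replicate 1, 7 were lower and 4 higher, and after the correction for length and GC content 7 and 3, beside 5519 lower and 4169 higher of 14736 genes with that correction.

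**Figure D4:**
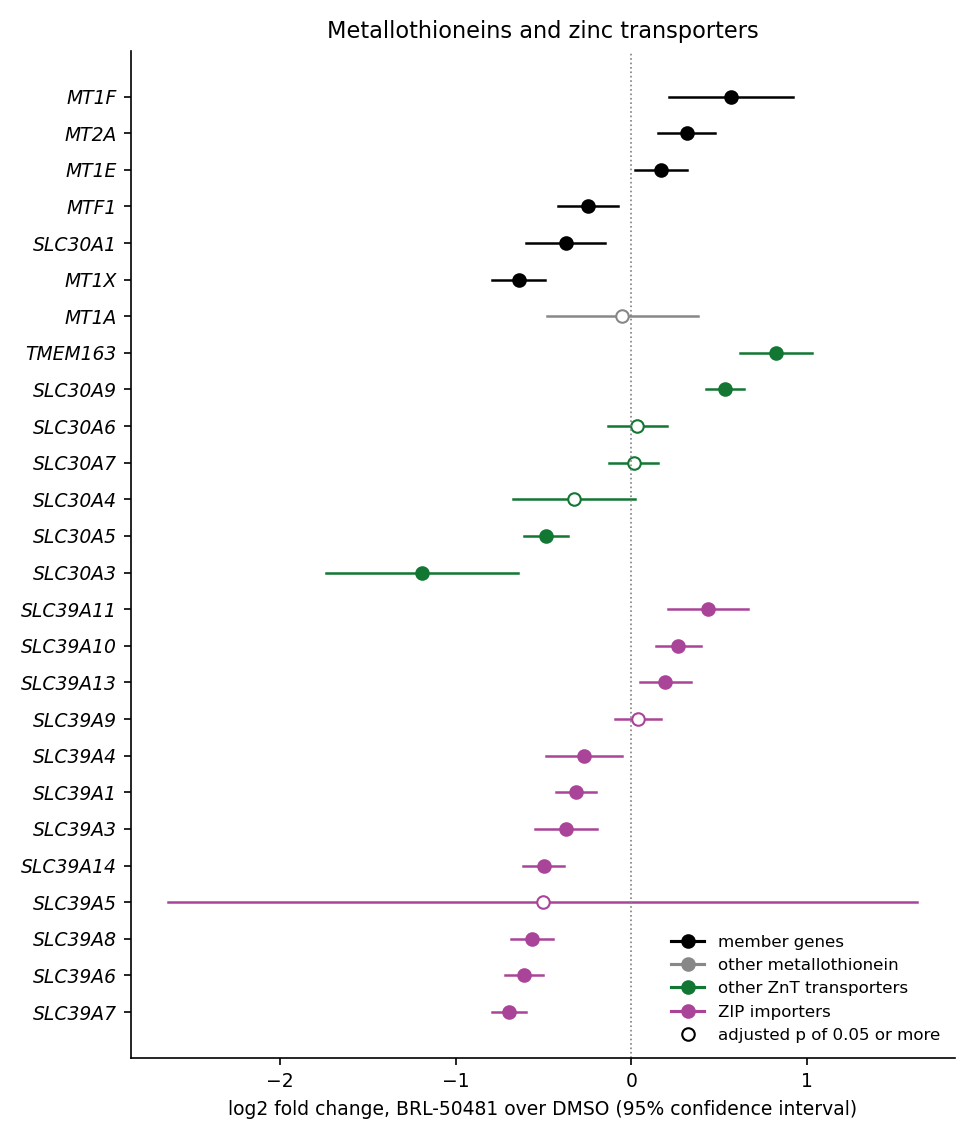
Log2 fold change, BRL-50481 over DMSO, with its 95% confidence interval from limma (x axis) for the 6 genes (black), MT1A (grey), the other ZnT transporters tested (green) and the ZIP importers tested (purple). Open points did not pass the adjusted p threshold. Among the ZIP genes 7 filled points lie left of 0 and 3 right of it, and the interval of SLC39A5, a gene with few reads, is the widest.

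Copper handling genes, whose products share the second metal of metallothioneins, were 12 in number and all tested, with 7 called lower and 1 higher and a median of -0.19 on the log2 scale. Among all genes tested 29.8% were lower, and 58.7% were called in either direction. SCO2 (-0.65, adjusted p = 0.000113 in limma) and COX17 (-0.53, adjusted p = 0.000125), which deliver copper to cytochrome oxidase, changed most. SOD1, a copper and zinc enzyme, was lower (-0.19, adjusted p = 0.0107), and the copper importer SLC31A1 had a log2 fold change of -0.030 with a 95% confidence interval from -0.14 to 0.078. Both without DMSO replicate 1 and after the correction for length and GC content, 9 were lower and 1 higher.

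Among 6 regulators known to act on metallothionein promoters beside MTF1, 2 were called higher and 0 lower in limma. Of all genes tested, 28.9% were higher and 29.8% lower. NR3C1, the glucocorticoid receptor, rose from 5643 ± 604 to 7513 ± 141 normalized counts (SD, n = 3 each). On the log2 scale the change was 0.42 with a standard error of 0.0655 (limma, adjusted p = 0.000114). SP1 was at the threshold (0.18, adjusted p = 0.0499), with overlapping groups, and STAT3 did not pass it (0.13, adjusted p = 0.0570). Without DMSO replicate 1, 3 were called higher and 1 lower, and after the correction 2 and 0. Of 10 glucocorticoid-responsive genes, 9 were tested, 5 were lower and 1 was higher, with a median of -0.17, beside 29.8% lower and 28.9% higher of all genes. These counts were 5 and 1 without DMSO replicate 1 and 6 and 2 after the correction. DUSP1, a phosphatase of MAP kinases that many other signals also induce, fell by 1.26 on the log2 scale (adjusted p = 3.85e-09) and TSC22D3, known as GILZ, by 0.69 (adjusted p = 6.83e-07). ERRFI1, an inhibitor of the EGF receptor, rose (0.56, adjusted p = 2.16e-07).

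Genes that cadmium or excess zinc induces together with metallothioneins were 10 in the list, and 9 were lower and 0 higher by limma, and the median was -1.04 on the log2 scale. This list holds heat shock and antioxidant genes, and the fall of its heat shock genes was known from these libraries when the list was written. HSPA1B (-2.69) and HSPA1A (-2.68), near-identical heat shock genes, changed most, and reads that fit both could not be assigned to either alone. The counts were 9 lower and 1 higher without DMSO replicate 1 and 9 and 0 after the correction for length and GC content, and 29.8% of all genes tested were lower. The most abundant were TXNRD1, a thioredoxin reductase (-0.39, standard error 0.0494, adjusted p = 1.89e-05 in limma), and the heat shock gene DNAJB1 (-1.15, standard error 0.0450, adjusted p = 1.37e-09). HMOX1, the heme oxygenase that heavy metals strongly induce, was chosen after its values were seen and went from 1238 ± 84.3 to 468 ± 40.2 normalized counts (-1.40, standard error 0.0813, adjusted p = 2.28e-08). MT2A, MT1E and MT1F were higher where 9 of these 10 genes were lower, and MT1X was lower as they were. As genes of this list were chosen with their fall known, this contrast is a description and no test of a metal response.

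The surroundings of the metallothionein cluster were examined because its genes moved apart within 119.1 kb. In the 500 kb to either side, 10 other genes were tested, with 3 higher and 4 lower and a median of 0.049 on the log2 scale, beside 28.9% higher and 29.8% lower of all genes. The counts were 4 and 4 without DMSO replicate 1 and 3 and 4 after the correction for length and GC content. BBS2, which encodes a part of the ciliary BBSome and whose annotated span on the minus strand reaches into the MT4 end of the cluster, had a log2 fold change of 0.062 (95% confidence interval -0.096 to 0.22). The gene tested next after MT1X, the nucleoporin gene NUP93, was lower (-0.42, standard error 0.0495, adjusted p = 1.05e-05 in limma). The largest change among the neighbours was that of OGFOD1, a ribosomal protein hydroxylase (-0.72, standard error 0.0514, adjusted p = 1.32e-07). HERPUD1 (-0.39), of endoplasmic reticulum protein degradation, was also lower. CPNE2 (0.46), NLRC5 (0.36) and FAM192A (0.27) were higher, and GNAO1 (0.037) and NUDT21 (0.070) did not pass the threshold.

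**Figure D5:**
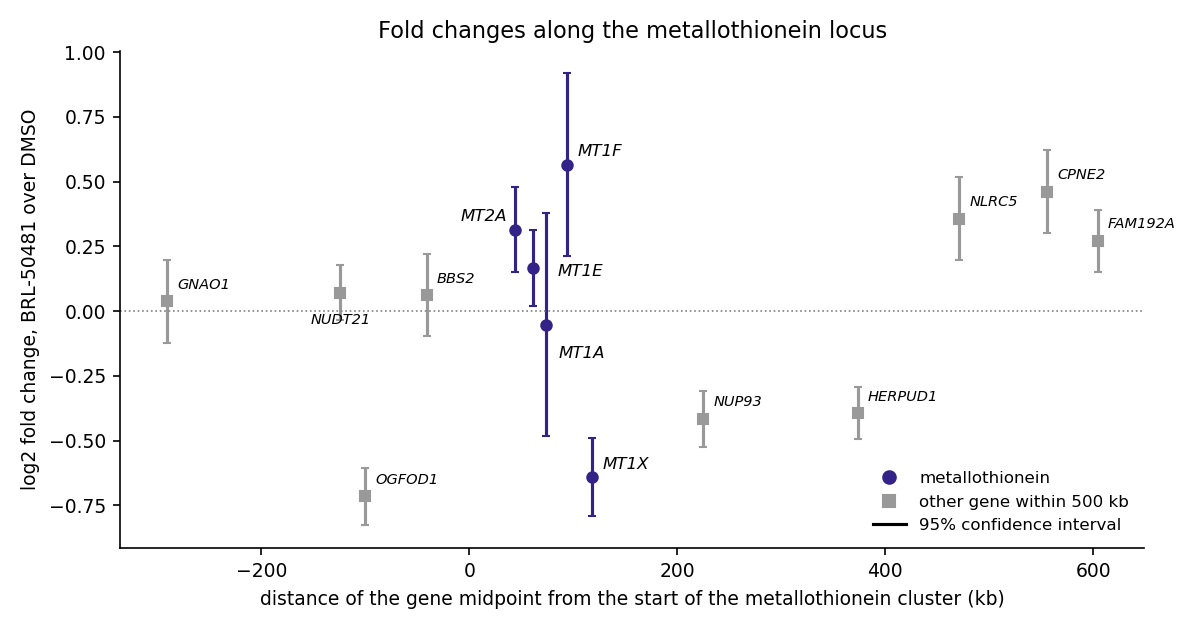
Log2 fold change with its 95% confidence interval (y axis) against the distance of each gene's midpoint from the start of the metallothionein cluster in kb (x axis), for the metallothioneins (dark circles) and 9 of the 10 other genes tested within 500 kb (grey squares). Within the cluster MT2A, MT1E and MT1F lie above 0 and MT1X at -0.64 below it, while the neighbours lie on both sides.

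The genes most like MT2A and SLC30A1 were sought over the 6 libraries by Pearson's r of the log2 levels among genes with a mean of at least 50 normalized counts. All points share the treatment and the library scaling, and the DMSO libraries differed with transcript length, so r is a description only. Among the 3 genes with the highest r to MT2A were PIGP (0.997), an enzyme subunit of GPI anchor synthesis, and ARL6IP4 (0.996), and 609 of 12250 genes had an r over 0.9. PIGP and ARL6IP4 rose by 0.29 and 0.30 on the log2 scale. MT1E (r = 0.960) was nearest to MT2A among the 6 genes, whereas MTF1 (-0.974) and SLC30A1 (-0.949) ran opposite to it. The highest r to SLC30A1 were those of SEC23IP (0.994), S1PR3 (0.994) and PHF20 (0.993), with log2 fold changes of -0.15, -0.31 and -0.16, of which that of S1PR3 did not pass the threshold (adjusted p = 0.0624 in limma). MT1X was less like either, with an r of -0.633 to MT2A and 0.600 to SLC30A1.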

How the data were processed

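RNA-seq of 6 libraries was analysed from 1 table that the authors deposited. According to the methods and the submitters' processing notes, STAR 2.7.1a mapped 76-base single-end reads onto hg38, and HTSeq counted them per UCSC gene in reverse-strand mode. The deposited signal is this read count divided by the DESeq2 size factor of the library, by the authors. Their columns of fold changes, p-values and means were not used. Divided by what 1 read is worth in their library (0.969 to 1.02), 100% of the values came out whole within 0.01 read, and these reads entered the count-based tests.

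Samples were grouped by their titles. The series text calls the replicates biological without saying how the cultures were separated, so p-values measure the spread between these samples. Genes with a value of at least 4 in at least 3 libraries were tested (15246 of 15651; 405, 2.59%, were left out) on log2(normalized count + 1) by limma 3.58.1 (R 4.3.3, trended prior variance), and p-values were adjusted by Benjamini-Hochberg over all genes. A fold change on this scale understates the change of low genes. As alternatives, the pseudocount was 0.5 or 4, the filter was dropped or set to a mean of 20, and the analysis was run with quantile normalization, median centring, no trend, edgeR 4.0.16, DESeq2 1.42.0, a replicate block, leaving out each library, and a loess correction (span 0.5) on transcript length and GC content from GENCODE 44 (96.5% of genes matched). Counts for lists without DMSO replicate 1 and after the correction were added after seeing the data. The tests were also run on simulated counts in which few genes changed and no library stood apart. These data differ in both respects, so that run does not vouch for the calls here. The members and lists were chosen with earlier results of these data known. Named genes were the members, the other metallothioneins, the 2 called genes that changed most and the 2 most abundant in each list, all genes tested within 500 kb of the cluster, and the 3 most like MT2A or SLC30A1, of which 2 genes are not reported here. Intervals are 95% and from limma. Python 3.11.15 and matplotlib 3.10.9 were used for the other steps.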

Additional observations from a re-analysis of the deposited data

How the results depend on the processing

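No direction of the 6 genes reversed in any of the 18 other settings, and MT1X was called in all 18 at an adjusted p under 0.05 (adjusted p at most 0.00227). Without a trend in the prior variance, 1 gene was called higher (MT1F) and 1 lower (MT1X), and MT1E (0.17, adjusted p = 0.131), MT2A (0.31, 0.0524), SLC30A1 (-0.37, 0.0673) and MTF1 (-0.25, 0.0736) lost their calls with the same log2 fold changes. MT1E was not called by edgeR (0.16) or DESeq2 (0.17), nor MT1F with quantile normalization (0.40). With an absolute log2 fold change over 1 required, 0 were higher and 0 lower. Leaving out each library in turn gave log2 fold changes of 0.094 to 0.23 for MT1E, 0.43 to 0.67 for MT1F, -0.71 to -0.57 for MT1X, 0.20 to 0.39 for MT2A, -0.51 to -0.24 for SLC30A1 and -0.30 to -0.15 for MTF1, with 1 to 3 of the genes called higher and 2 to 3 lower. The cause of these losses was not tested. Over all genes, 4400 were higher and 4546 lower, and 3751 to 4876 and 4027 to 4933 with a library left out, 4169 and 5519 with the length and GC correction, and 4743 and 4211 with median centring. Whether the replicate numbers pair the samples is not stated and was not settled by the values. Deviations of same-numbered libraries correlated at 0.121, 0.104 and 0.0514, and those of libraries with other numbers at -0.159 to 0.0607. With the replicate number as a block, 4440 genes were higher and 4589 lower, 3 of the 6 genes were higher (MT1E at 0.17, adjusted p = 0.0451) and 3 lower, and together with the length and GC correction the counts for the 6 genes were the same. MT1F and MT1A rested on the fewest reads of these genes, 64 to 136 per library.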
